A study of Rattus norvegicus with 77 samples.

Results

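The nuclear genes for subunits of the mitochondrial respiratory chain and ATP synthase were described across the 4 groups of rat sperm arrays. A gene was taken as a member when a probe set carried it as its 1 platform symbol and the symbol belonged to the Nduf (a, b, c, s and v), Sdh, Uqcr, Cox4 to Cox8 or Atp5 families. Assembly factors of the Ndufaf family and pseudogenes were left out, and where a gene had several probe sets the one with the highest mean was used. This gave 75 genes from 86 probe sets, of 14506 genes with 1 symbol on the array. By family, 33 genes belonged to complex I, 4 to complex II, 7 to complex III, 15 to complex IV and 16 to complex V. Ndufa4 was counted with complex I by its symbol, although its protein is known as a subunit of cytochrome c oxidase. Atp5if1, the gene of the inhibitory factor of ATP synthase, was likewise counted with complex V by its symbol.

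Complexes I to IV pass electrons from NADH and succinate to oxygen, and complexes I, III and IV pump protons across the inner mitochondrial membrane. Complex V, the ATP synthase, uses the proton gradient to make ATP. Most subunits are encoded in the nucleus, and a few have isoforms made in certain tissues, such as Cox6b2 and Cox8c in testis and Cox6a2 and Cox8b in muscle. In sperm the mitochondria are packed into the midpiece of the tail, and mature sperm carry RNA left from spermatid stages, since they transcribe little or nothing.

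The arrays measured the large RNA fraction of cauda epididymal sperm from adult male Fischer 344 rats, with 1 array per rat. The HD group (n = 19) drank water with 0.33% 2,5-hexanedione (HD), a toxicant of Sertoli cells, for 3 months, and the water group (n = 20) drank water alone for the same time. The HD-recovery group (n = 20) and the water-recovery group (n = 18) had the same treatments and were then kept for 3 further months. All sperm passed through a buffer meant to lyse other cells, and the labels give the same strain and sperm preparation for all groups.

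Arrays of 1 group differed widely from each other. Taken as the median of its Pearson correlations with same-group arrays, an array's likeness to its group ran from 0.83 to 0.98. Arrays whose median correlation lay more than 1.5 interquartile ranges below the first quartile of their group were said to stand apart, and these were HD replicates 3, 4 and 5, water replicates 9, 12 and 20, HD-recovery replicates 2, 9 and 16 and water-recovery replicates 12 and 15. All 77 arrays were kept, and the results that rest on these arrays are also given with these left out. The mean of 17 sperm and spermatid markers lay between 8.97 and 10.91 on the HD arrays, 8.95 and 10.33 on the water arrays, 9.08 and 10.26 on the HD-recovery arrays and 9.20 and 10.00 on the water-recovery arrays, as log2 intensities. The mean of 20 leukocyte and macrophage markers lay between 7.29 and 8.21, 7.41 and 8.28, 7.30 and 8.56, and 7.33 and 8.67 in the same order of groups. Signs of log2 differences below follow the labels, as arrays labelled HD minus arrays labelled water, and this direction is opposite to that given by the study for the transcripts it listed.

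No subunit gene passed the test between the HD and the water arrays at the end of exposure. Of the 75 genes, 0 passed at a q-value under 0.05 (limma, n = 19 and 20 arrays), where 138 of all 29214 probe sets passed, or 0.472% (0.0171% higher and 0.455% lower). At an unadjusted p under 0.05 there were also 0 of 75, where 8.3% of all probe sets passed (3.4% higher and 4.91% lower). The differences lay on both sides of zero, with 38 genes above and 37 below, and their median was 0.00 on the log2 scale beside 0.01 for all probe sets. By complex the median ran from −0.05 for complex IV to 0.02 for complexes II and V. In these bulk samples, fewer cells of a type and less RNA per cell cannot be told apart.

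Uqcrc2, a core protein of complex III, had a lowest value of 7.17, a median of 7.50 and a highest of 8.92 in the HD arrays, against 6.97, 7.71 and 8.21 in the water arrays. Its HD median was the lower one, yet its 4 highest HD arrays, replicates 5, 3, 4 and 14, lay above every water array, and the groups overlapped. The log2 difference was −0.04 (SE 0.13, 95% confidence interval −0.30 to 0.22, q = 0.99 from limma). Ndufa5, an accessory subunit of complex I, had the smallest p of the 75, with a lowest, median and highest value of 6.95, 7.36 and 7.66 in the HD arrays and 6.79, 7.29 and 7.49 in the water arrays. The groups overlapped, and the log2 difference was 0.11 (95% confidence interval −0.01 to 0.23, q = 0.71). Ndufa4 had the most negative difference, at 6.83, 7.47 and 9.44 in the HD arrays and 6.59, 8.21 and 9.23 in the water arrays. It differed by −0.30 (95% confidence interval −0.76 to 0.17, q = 0.88), with 12 of 19 HD values under the median of water. The next smallest p in each direction belonged to Ndufb3 (0.10), Atp5mc1 (0.05), Ndufa11 (−0.15) and Ndufb9 (−0.16), with q between 0.86 and 0.92.

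The catalytic and defining subunits differed by little in either direction. Ndufv1, which binds NADH, had a log2 difference of 0.06 and Ndufs1, the large iron-sulphur subunit of complex I, one of 0.02. Sdha and Sdhb, the flavoprotein and the iron-sulphur subunit of succinate dehydrogenase, had −0.04 and 0.01. Uqcrfs1, the Rieske iron-sulphur protein, had 0.02, and Cox4i1 and Cox5a of cytochrome c oxidase had −0.06 and 0.06. Atp5f1a and Atp5f1b, the alpha and beta subunits of the catalytic head of ATP synthase, had 0.12 and 0.04. None of these passed (q between 0.94 and 0.99 from limma), and their 95% confidence intervals were wide, with that of Atp5f1b running from −0.44 to 0.52.

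**Figure D1:**
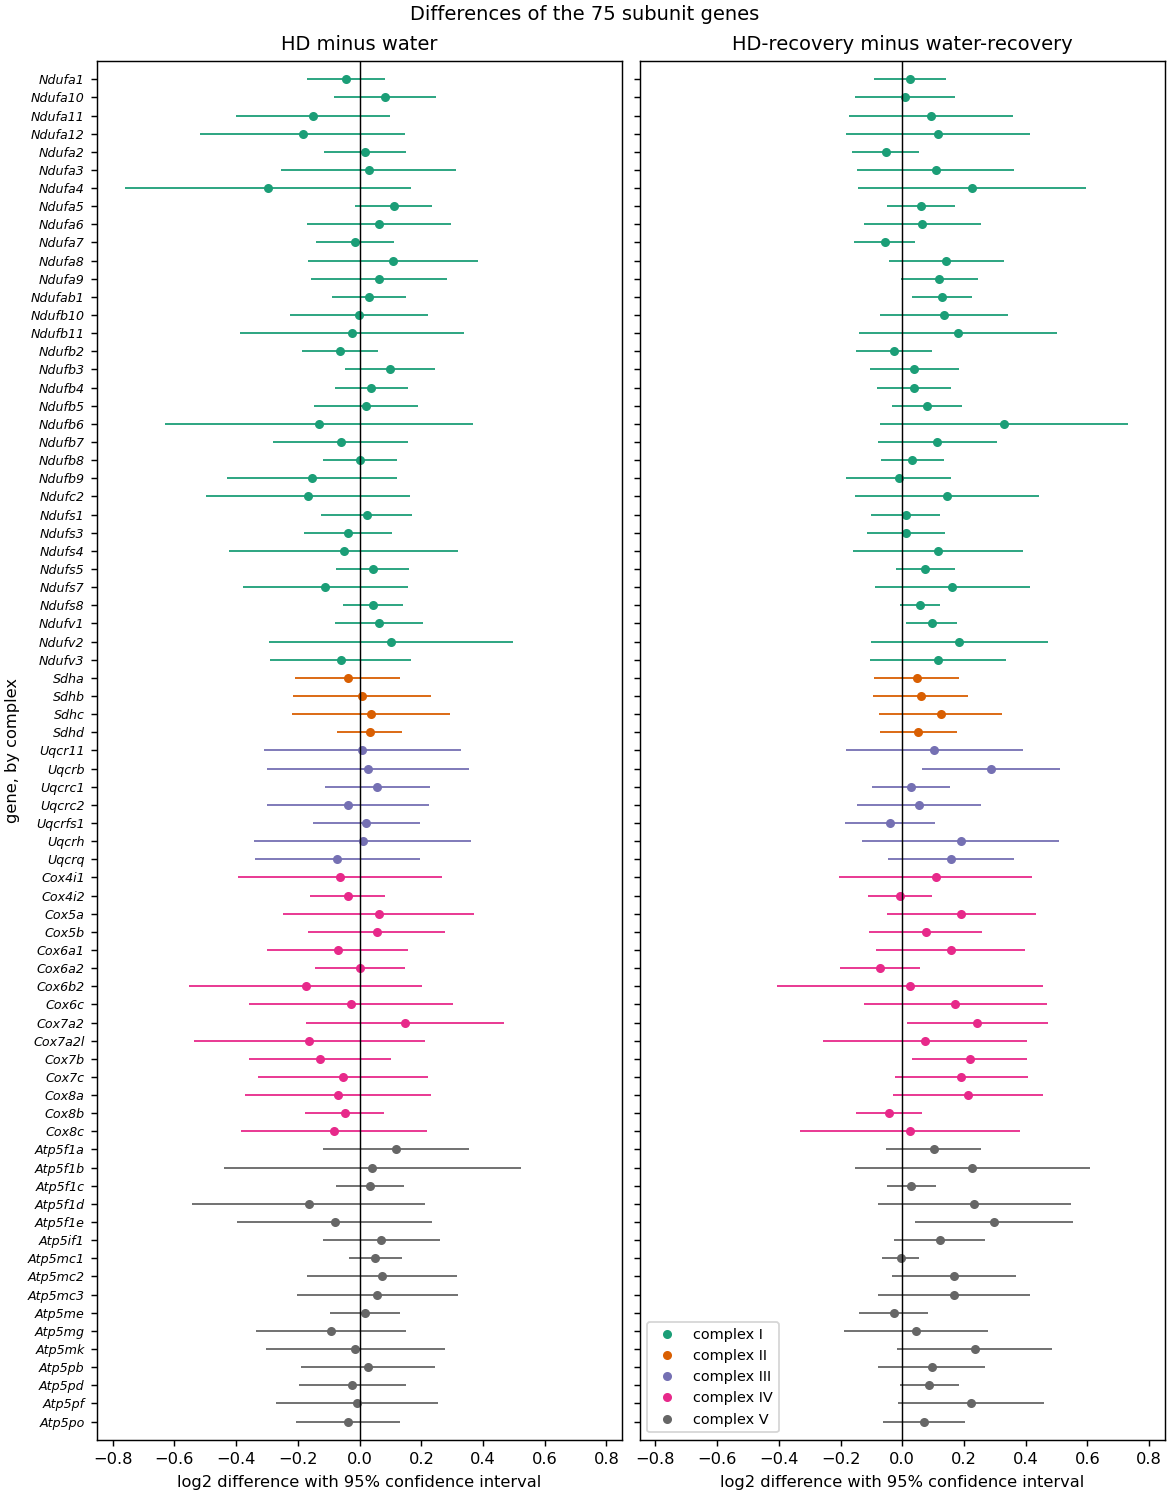
Log2 difference of each of the 75 subunit genes (points) with its 95% confidence interval from limma (lines), for HD minus water on the left and HD-recovery minus water-recovery on the right, ordered and coloured by complex. In the left panel 38 points lie above zero and 37 below, and in the right panel 65 lie above and 10 below.

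After recovery the subunit genes leaned towards higher values in HD-recovery arrays, without any gene passing the test. Again 0 of the 75 genes passed at q under 0.05 (limma, n = 20 and 18), as did 0 of all probe sets, so the share of all probe sets was 0%. In this comparison 65 genes had a difference above zero and 10 below, and the median was 0.10 beside −0.01 for all probe sets. The members varied together across arrays, so these signs are not independent of each other. On the level of arrays, the mean of the 75 genes was 7.52 ± 0.25 in HD-recovery and 7.42 ± 0.21 in water-recovery arrays (SD). At an unadjusted p under 0.05 there were 6 genes, all higher in HD-recovery arrays, where 4.51% of all probe sets passed (2.86% higher and 1.65% lower). The medians of the 5 complexes ran from 0.06 for complex II to 0.11 for complex V.

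The 6 genes at an unadjusted p under 0.05 were spread over 4 complexes. Ndufab1, the mitochondrial acyl carrier protein and a subunit of complex I, had a lowest, median and highest value of 7.97, 8.15 and 8.46 in the HD-recovery arrays and 7.81, 8.01 and 8.40 in the water-recovery arrays. The groups overlapped, although 19 of the 20 HD-recovery arrays lay above the water-recovery median, and the log2 difference was 0.13 (SE 0.05, q = 0.87 from limma). Uqcrb, a small subunit of complex III near its ubiquinone site, had 7.82, 8.56 and 9.17 in the HD-recovery arrays and 7.57, 8.27 and 8.99 in the water-recovery arrays. Its difference was 0.29 (SE 0.11, q = 0.91), and 2 other probe sets of the gene gave 0.25 and 0.27. Cox7b, a small subunit of complex IV, had 6.64, 7.02 and 7.63 in the HD-recovery arrays and 6.14, 6.92 and 7.39 in the water-recovery arrays. It differed by 0.22 (SE 0.09), with overlap between the groups. Atp5f1e, the epsilon subunit of ATP synthase, differed by 0.30 (SE 0.13), Cox7a2, the widely expressed isoform of its complex IV subunit, by 0.24 (SE 0.11), and Ndufv1 by 0.10 (SE 0.04), all 3 with q at 1.00. Uqcrc2 differed by 0.05 (95% confidence interval −0.15 to 0.25, q = 1.00). Of the 10 genes below zero, Ndufa7 (−0.06), Cox6a2 (−0.07) and Ndufa2 (−0.05), the first and the last of them accessory subunits of complex I, had the smallest p, each with q at 1.00. All 75 genes overlapped between the groups in this comparison, and likewise between HD and water. The share of all probe sets that overlapped was not computed, so whether this is particular to the members is not known.

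The 2 exposure effects were then set against each other in 1 fit of all 4 groups. No gene passed for the difference between the HD effect at 3 months and that after recovery (0 of 75, where 0% of all probe sets passed, limma), and 62 of the 75 differences were negative, with a median of −0.10 beside 0.02 for all probe sets. At an unadjusted p under 0.05 there was 1 gene, Cox7b, at −0.35 (SE 0.15, q = 1.00), where 3.38% of all probe sets passed (1.36% higher and 2.02% lower). Between HD-recovery and HD arrays no member passed either, where 0.154% of all probe sets did. Uqcrfs1 at −0.18 (q = 0.42) and Ndufb3, an accessory subunit of complex I, at −0.15 (q = 0.49) were the 2 members at an unadjusted p under 0.05, where 9.55% of all probe sets passed (4.28% higher and 5.27% lower). Between water-recovery and water arrays, none of them from exposed rats, 0 of 75 passed (0% of all probe sets), while 61 differences were negative and the median was −0.08 beside 0.00 for all probe sets. Uqcrb had −0.43 (SE 0.14, q = 0.88), Ndufb6, an accessory subunit of complex I, −0.51, Cox7b −0.25 and Atp5pd, a subunit of the ATP synthase stalk, −0.19, and these were the 4 members at an unadjusted p under 0.05, where 4.7% of all probe sets passed (2.36% higher and 2.34% lower). The recovery groups were 3 months older than the others, so age and recovery cannot be told apart, and these comparisons share arrays with the comparisons above. The counts of negative differences are again over genes that varied together, and are not counts of independent results.

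The subunit genes varied together from rat to rat. Once group means were removed, the median correlation between 2 members was 0.61 over 2775 pairs, with 58.4% of pairs above 0.5 and 20.6% below zero (a description over the same 77 arrays, whose overall quality the pairs share). The main component of variation between arrays, computed without the members, held 41.8% of the variance. Its sign was then set so that it rose with the members' mean. Of the 75 members, 57 had a correlation over 0.6 with this component, or 76.0%, against 15.6% of all probe sets. Both shares count only the side that the members' mean set. The members' median correlation with it was 0.78 for complex I, 0.81 for complexes II and V, 0.83 for complex III and 0.80 for complex IV, so no complex stood alone. Atp5f1b had the highest value at 0.93, Cox7a2l, which joins complexes into supercomplexes, and Uqcr11 had 0.92, and Uqcrc2 had 0.90. The spread within a group, as an SD, had a median of 0.34 over the members and 0.21 over all probe sets. It was lowest for Atp5mc1, a gene of the membrane ring of ATP synthase, at 0.10 and highest for Ndufb6 at 0.73.

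A smaller set of members ran the other way. Of the 75 genes, 9 had a negative correlation with the main component. Cox6a2 had −0.70, Ndufb3 −0.65 and Ndufb2 −0.62, and Cox4i2, the isoform known from lung, had −0.45. Ndufa10, Ndufa5 and Ndufa2 had values between −0.42 and −0.39, and Cox8b and Atp5me lay near zero. In HD arrays Cox6a2 had a lowest, median and highest value of 6.14, 7.17 and 7.42, and in water arrays 6.81, 7.06 and 7.23. In HD-recovery arrays it had 6.63, 6.95 and 7.45 and in water-recovery arrays 6.74, 7.05 and 7.38. The 3 HD arrays that stood apart, which were the highest of their group for Uqcrc2 and Atp5f1b, were the lowest for Cox6a2, below every water array. Cox6a2 did not pass in either comparison (0.00 with q = 0.99 for HD minus water, and −0.07 with q = 1.00 for HD-recovery minus water-recovery, limma).

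**Figure D2:**
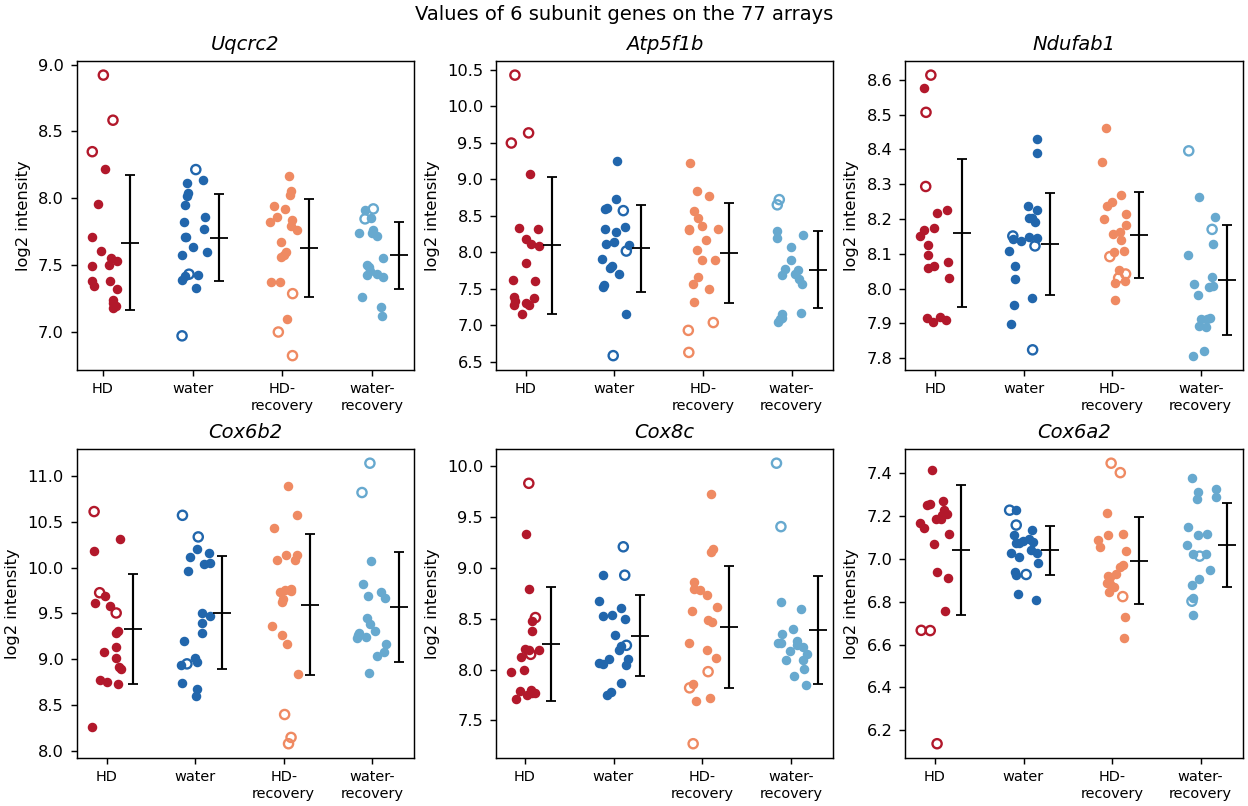
Log2 intensity of Uqcrc2, Atp5f1b, Ndufab1, Cox6b2, Cox8c and Cox6a2 on the 77 arrays, with 1 point per array by group, open points for arrays that stood apart and black bars for each group's mean and SD. The open HD points top the Uqcrc2 and Atp5f1b panels, at 8.92 and 10.43 for replicate 5, and the HD values of Cox6a2 reach down to 6.14.

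The members were set beside markers of the cells that the preparation could hold. With group means removed, the median correlation of a member with the mean of 20 leukocyte and macrophage markers was 0.57, and with the mean of 17 sperm and spermatid markers 0.41, over the 77 arrays. It was over 0.5 for 45 members with the leukocyte markers and for 19 with the sperm markers. Cox6b2 and Cox8c, the isoforms made in testis, had the highest correlations with the sperm markers of all 75 members, at 0.84 and 0.82, and lower ones with the leukocyte markers, at 0.57 and 0.42. For 3 subunits used by most cells the order was the reverse: Cox8a had 0.29 with sperm and 0.71 with leukocyte markers, Cox4i1 0.47 and 0.72, and Uqcrc2 0.47 and 0.71. In all, 16 of the 75 members had the higher correlation with the sperm markers. These were not only isoforms made in testis. Uqcrc1 had 0.61 with sperm and 0.47 with leukocyte markers, Ndufv1 0.57 and 0.42, Atp5f1a 0.58 and 0.52, and Cox5b 0.53 and 0.45. These are descriptions over arrays that share the main component, with no test, and the part that other cells had in the members' levels was not tested.

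**Figure D3:**
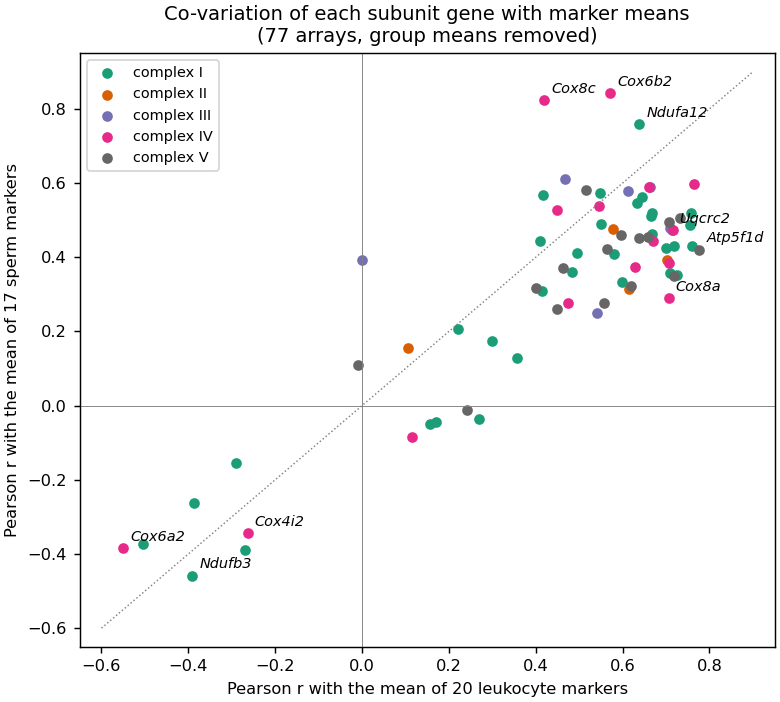
Pearson correlation of each of the 75 subunit genes with the mean of 20 leukocyte and macrophage markers (horizontal) and of 17 sperm and spermatid markers (vertical) over 77 arrays after group means were removed, coloured by complex, with a dotted line where both are equal. Cox8c and Cox6b2 lie at the top, at 0.82 and 0.84 on the vertical axis, and Cox6a2 lies at −0.55 on the horizontal axis.

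Within single groups the mean of the 75 genes on an array varied with the leukocyte and the erythroid marker means. With the leukocyte markers Pearson's r was 0.64 (Spearman's rho 0.66) over the 19 HD arrays, 0.92 (0.91) over the 20 water arrays, 0.83 (0.74) over the 20 HD-recovery arrays and 0.62 (0.76) over the 18 water-recovery arrays. Without the 2 arrays farthest from the median marker value it was 0.50, 0.87, 0.82 and 0.74 in the same order, and with the arrays that stood apart left out it was 0.91, 0.92, 0.70 and 0.64. With the sperm markers r was 0.46 (rho 0.35), 0.59 (0.64), 0.54 (0.46) and 0.65 (0.35), and with the arrays that stood apart left out it was 0.23, 0.66, 0.07 and 0.17. The relation with the sperm markers was thus weaker without those arrays in every group but the water one. With 6 erythroid markers r was 0.38 (rho 0.43), 0.66 (0.68), 0.82 (0.74) and 0.74 (0.79), and with the arrays that stood apart left out it was 0.79, 0.79, 0.67 and 0.56. With 15 epididymal epithelial markers r lay between 0.38 and 0.63 with all arrays and between 0.32 and 0.47 with those left out, in 16 relations computed in all.

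The marker means themselves differed between the groups at 3 months. The leukocyte mean was 7.55 ± 0.26 in HD and 7.88 ± 0.23 in water arrays (SD, n = 19 and 20), a difference of −0.32 (2-sided permutation test, adjusted p = 0.00102 over 14 tests), and 5 of its 20 genes were lower by limma. The erythroid mean differed by −0.42 (adjusted p = 0.00102, permutation test), with 1 of its 6 genes lower by limma. The fibroblast mean differed by −0.29 (adjusted p = 0.00021, permutation test). Of its 9 genes 1 was lower by limma, and their median difference was −0.09. The mean of 8 Sertoli cell genes was higher by 0.20 (adjusted p = 0.00014, permutation test), with Clu alone of the 8 passing in limma. The sperm marker mean differed by 0.15 (adjusted p = 0.496, permutation test), the epididymal mean by −0.06 and the smooth muscle and endothelial mean by −0.0038. The 17 sperm markers went both ways, with 6 higher and 5 lower at an unadjusted p under 0.05 (limma). Of these 17, 1 was lower at q under 0.05. After recovery the fibroblast mean differed by −0.17 (adjusted p = 0.0367, permutation test), and the sperm mean differed by 0.19 and the leukocyte mean by −0.10 (adjusted p = 0.123 and 0.496, permutation test). The part of these markers in the members' values was not tested.

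Most of the arrays that stood apart lay near the ends of the members' range in their group. The mean of the 75 genes was 7.51 ± 0.35 in HD arrays (median 7.35), 7.52 ± 0.23 in water arrays (median 7.50), 7.52 ± 0.25 in HD-recovery arrays (median 7.59) and 7.42 ± 0.21 in water-recovery arrays (median 7.39). HD replicates 3, 4 and 5 were the 3 highest of their group, at 8.20, 8.08 and 8.20, and water-recovery replicates 12 and 15 were the 2 highest of theirs, at 7.85 and 7.90. HD-recovery replicates 9, 2 and 16 were low, at 7.04, 7.06 and 7.22. Of the 3 water arrays, replicate 12 was the lowest of its group at 7.06. Replicates 9 and 20, at 7.78 and 7.57, ranked 4 and 8 from the top, the latter near the group's median. With all arrays that stood apart left out, the means were 7.39 in HD arrays, 7.53 in water arrays, 7.59 in HD-recovery arrays and 7.36 in water-recovery arrays. The SDs were then 0.21, 0.21, 0.19 and 0.14 in the same order. The arrays left out were chosen from these same data. Leaving them out thus moves the members' differences and lowers the spread by the choice itself.

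**Figure D4:**
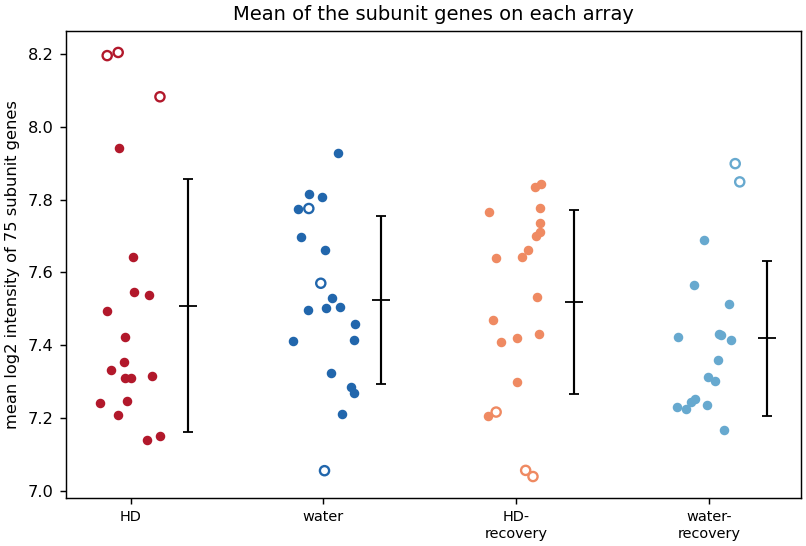
Mean log2 intensity of the 75 subunit genes on each of the 77 arrays by group, with open points for arrays that stood apart and black bars for each group's mean and SD. The 3 open HD points lie at 8.08 to 8.20 above the rest of their group, the 3 open HD-recovery points lie at 7.04 to 7.22, and the 2 open water-recovery points lie at 7.85 and 7.90.

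Without the arrays that stood apart, 8 members were lower in HD than in water arrays and none was higher (limma, n = 16 and 17), where 7.95% of all probe sets were lower and 6.94% higher. The 8 members are 10.7% of the 75, a share near that of all probe sets. These were Ndufa4 (−0.59, q = 0.032), Ndufb6 (−0.56, q = 0.024), Ndufc2 (−0.43, q = 0.019), Ndufb9 (−0.35, q = 0.027) and Ndufa11 (−0.28, q = 0.043), which were counted with complex I, with Atp5f1d of complex V (−0.44, q = 0.040), Cox7b of complex IV (−0.26, q = 0.048) and Uqcrc2 (−0.25, SE 0.09, q = 0.042). The median over the 75 genes was −0.12. In the same setting 44 members were higher in HD-recovery than in water-recovery arrays and none was lower (n = 17 and 16), where 6.54% of all probe sets were higher and 6.58% lower. They were 17 of 33 genes of complex I, 2 of 4 of complex II, 4 of 7 of complex III, 10 of 15 of complex IV and 11 of 16 of complex V. The median was 0.24, with Ndufb6 at 0.62 (q = 0.015), Atp5f1b at 0.54 (q = 0.016), Cox6b2 at 0.45 (q = 0.026), Uqcrb at 0.39 (q = 0.016) and Ndufab1 at 0.18 (q = 0.0096), while Uqcrc2 at 0.20 (q = 0.064) and Cox8c at 0.32 (q = 0.061) did not pass.

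The change in the exposure effect between the times was also called in this setting, whose counts and q-values are shaped by the choice of arrays. Of the 75 members, 58 had a lower HD effect at 3 months than after recovery and 1, Cox6a2 (0.25, q = 0.0059), a higher one, where 16.8% of all probe sets were lower and 31.3% higher (limma). Uqcrc2 had −0.44 (q = 0.0044), Atp5f1b −0.89 (q = 0.0033) and Ndufb6 −1.19 (q = 0.0015). Between HD-recovery and HD arrays 45 members were higher, where 15.1% of all probe sets were, and 3 were lower (Atp5me, Cox6a2 and Ndufb3), where 30.6% were. With such large shares of all probe sets called, a q-value can lie below its unadjusted p. Some of these calls thus need not reach an unadjusted p under 0.05. Examples are Uqcrc1 for the difference of the effects (−0.146, SE 0.077, q = 0.043) and Cox5a for HD-recovery minus HD (0.220, SE 0.119, q = 0.049). Between water-recovery and water arrays 0 members passed in this setting, as did 0% of all probe sets. The sperm marker mean was then higher in HD-recovery than in water-recovery arrays by 0.35 (adjusted p = 0.00049, permutation test over 17 and 16 arrays), and the leukocyte mean differed by 0.02 (adjusted p = 0.831, permutation test). Between HD and water arrays the leukocyte mean (−0.37, adjusted p = 0.00049), the fibroblast mean (−0.31, adjusted p = 0.00042) and the erythroid mean (−0.40, adjusted p = 0.00384) were lower and the Sertoli cell mean was higher (0.16, adjusted p = 0.00042, permutation tests over 16 and 17 arrays). The sperm mean differed by 0.14 (adjusted p = 0.378, permutation test). The part of any of these in the members' calls was not tested.

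The size of a member's difference was set beside how closely the gene tracked the main component. Over the 75 members, the correlation between a gene's r with the component and its HD-recovery minus water-recovery difference was 0.58 with all arrays and 0.74 with those that stood apart left out. For HD minus water it was −0.22 and −0.63. These describe genes measured on the same arrays, so the points are not independent. HD replicates 3, 4 and 5 lay at 0.20, 0.24 and 0.41 on the component. HD-recovery replicates 2, 9 and 16 lay at −0.18, −0.20 and −0.13, and water-recovery replicates 12 and 15 at 0.25 and 0.15. Leaving them out moves each gene's difference by how closely it tracks the component. The stronger correlations without them are thus in part set by that choice. The main component was also used as a covariate, computed for this from all probe sets, members included, on the arrays of each fit. Being taken from residuals about the group means, it cannot move any difference and changes only the errors, so this is no adjustment of the differences for it. In this setting 0 members passed for HD minus water (where 1.48% of all probe sets were higher and 3.52% lower) and 1 was higher for HD-recovery minus water-recovery (0.144% higher and 0.0171% lower). For the difference of the effects 1 member was lower (0.0685% higher and 1.15% lower), for HD-recovery minus HD 0 passed (3.05% higher and 1.68% lower), and for water-recovery minus water 6 were lower (0.493% higher and 0.585% lower). With array weights, which count unlike arrays less, 11 passed for HD minus water (1 higher and 10 lower, where 9.05% of all probe sets were higher and 8.67% lower) and 3 for HD-recovery minus water-recovery, all higher (1.45% higher and 0.349% lower). With weights 49 passed for the difference of the effects (1 higher and 48 lower, where 20% were higher and 13.6% lower) and 49 for HD-recovery minus HD (45 higher and 4 lower, where 15.1% were higher and 30.1% lower).

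**Figure D5:**
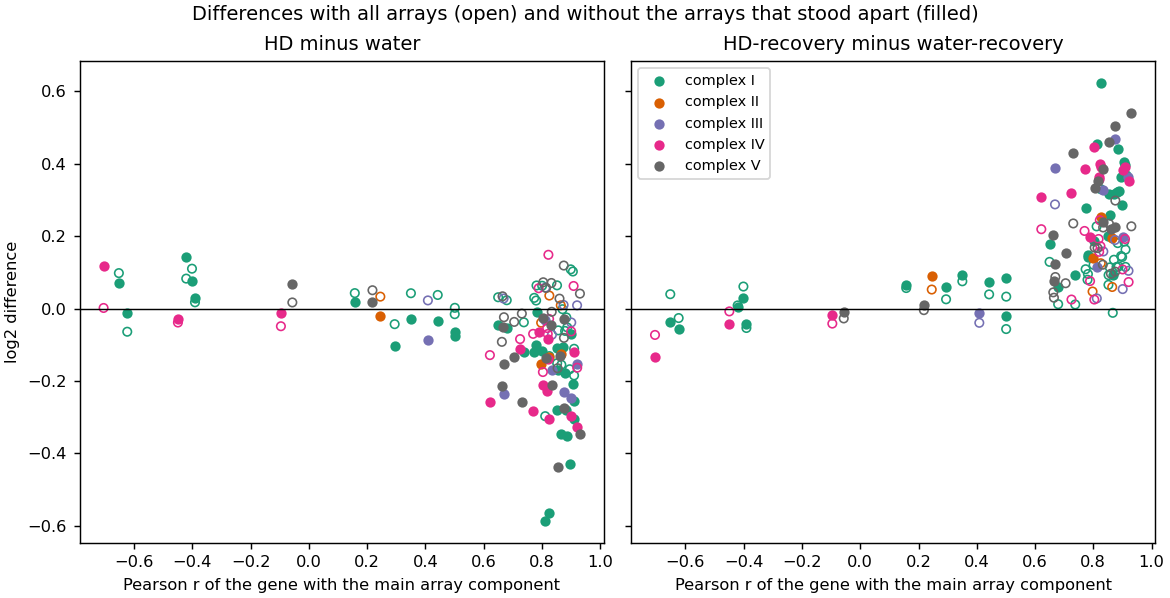
Log2 difference of each of the 75 subunit genes against its Pearson correlation with the main component of array variation, with all arrays (open) and without the arrays that stood apart (filled), coloured by complex. In the left panel 67 of the 75 filled points lie below zero, with a median of −0.12, and in the right panel 66 lie above zero, with a median of 0.24. Most of the arrays left out lay near the ends of this component.

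Complex IV isoforms that differ in where they are made, and Cox5a and Cox5b, 2 unlike subunits of every cytochrome c oxidase, were compared by their differences. Cox6b2 had a lowest, median and highest value of 8.26, 9.28 and 10.61 in HD arrays, against 8.60, 9.43 and 10.57 in water arrays. In HD-recovery arrays it had 8.08, 9.74 and 10.89, against 8.85, 9.35 and 11.14 in water-recovery arrays, and the groups overlapped in both comparisons. Its differences were −0.18 (95% confidence interval −0.55 to 0.20) and 0.02 (−0.41 to 0.46). Cox8c had −0.08 and 0.02, Cox8a −0.07 and 0.21, and the muscle isoform Cox8b −0.05 and −0.04. Cox6a1, the isoform of most tissues, had −0.07 and 0.16, and Cox6a2 0.00 and −0.07. Cox4i1 had −0.06 and 0.11, and Cox4i2 −0.04 and −0.01, while Cox5a and Cox5b had 0.06 and 0.19, and 0.06 and 0.08. None of these passed in either comparison with all arrays (limma, q between 0.96 and 1.00), and Cox6b1, Cox7a1, Cox7b2 and Ndufa4l2 were not analysed here.

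Genes around the respiratory chain were described in the same way. Of 31 measured assembly factors none passed in either comparison (median differences 0.02 and 0.02), and for HD minus water the smallest p belonged to Timmdc1, an assembly factor of complex I, at −0.33 (q = 0.063, limma) and Coa3, one of complex IV, at 0.16 (q = 0.31). None passed of 15 genes of pyruvate dehydrogenase and the TCA cycle (medians 0.05 and 0.05), of 14 genes for cytochrome c, carriers and channels (0.02 and 0.11), of 17 regulators of mitochondrial biogenesis (0.0040 and −0.0034) or of 68 mitochondrial ribosomal protein genes (0.02 and 0.03). In these lists the 2 smallest p for HD minus water belonged to Pdha2, the testis isoform of pyruvate dehydrogenase, at 0.21 and Idh3a of the TCA cycle at 0.08, to Ucp2, an inner membrane carrier, at −0.51 (q = 0.31) and Etfdh, which feeds electrons to ubiquinone, at 0.09, to Nrf1, a transcription factor for many respiratory genes, at −0.18 (q = 0.23) and Sirt3, a mitochondrial deacetylase, at 0.11, and to the ribosomal proteins Mrpl50 at 0.24 and Mrpl35 at −0.27. After recovery Vdac1, a channel of the outer membrane, had 0.18 (q = 0.72). Among 15 glycolytic genes of sperm, Tpi1, the triose phosphate isomerase, alone passed, at −0.78 for HD minus water (q = 0.027).

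Promoter sequence was read for the members because they moved together across arrays. RefSeq windows of 300 bases on the GRCr8 assembly, from 250 before to 50 after the annotated start, were matched to 67 of the 75 genes by gene ID. The motif GCGCANGCG, of nuclear respiratory factor 1, and the motif CCGGAAG, of GABP (nuclear respiratory factor 2), were searched on both strands. The first is close to its own reverse complement, so 1 site can match on both strands, and the 2 motifs may overlap each other. GCGCANGCG was found in 17 of the 67 windows, or 25.4%, against 6.26% of all 27457 windows, and CCGGAAG in 20, or 29.9%, against 9.22%. Either was found in 34, or 50.7%, against 14.2%. The median correlation with the main component was 0.81 for the 34 genes with a match and 0.80 for the 33 without. Uqcrc2 is shown for its 2 CCGGAAG matches, Ndufa11 for its 4 GCGCANGCG matches, and Atp5f1b and Cox6a2, the members with the highest and the lowest correlation with the main component, for having neither. Capitals mark matched letters on either strand, and a match is a description of the letters alone.
Uqcrc2, chr1:184598990-184599289 (+ strand): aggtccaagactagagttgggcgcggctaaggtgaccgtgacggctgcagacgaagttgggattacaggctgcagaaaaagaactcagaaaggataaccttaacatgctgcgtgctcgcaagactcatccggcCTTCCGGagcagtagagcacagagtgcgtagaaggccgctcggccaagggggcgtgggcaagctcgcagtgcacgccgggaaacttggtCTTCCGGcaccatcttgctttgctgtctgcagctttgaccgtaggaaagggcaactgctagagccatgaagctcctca
Ndufa11, chr9:1637364-1637663 (+ strand): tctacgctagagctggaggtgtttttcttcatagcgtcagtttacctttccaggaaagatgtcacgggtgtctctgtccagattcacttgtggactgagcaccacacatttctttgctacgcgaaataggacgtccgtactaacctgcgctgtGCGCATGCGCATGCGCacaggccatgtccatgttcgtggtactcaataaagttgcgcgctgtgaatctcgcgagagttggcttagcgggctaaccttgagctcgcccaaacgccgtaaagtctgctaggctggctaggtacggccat
Atp5f1b, chr7:1099808-1100107 (+ strand): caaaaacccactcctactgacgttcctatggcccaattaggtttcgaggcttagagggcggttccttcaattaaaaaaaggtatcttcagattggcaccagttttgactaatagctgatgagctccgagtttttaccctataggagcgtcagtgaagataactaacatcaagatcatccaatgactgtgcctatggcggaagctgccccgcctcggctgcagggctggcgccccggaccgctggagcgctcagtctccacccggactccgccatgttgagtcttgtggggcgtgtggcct
Cox6a2, chr1:192219667-192219966 (- strand): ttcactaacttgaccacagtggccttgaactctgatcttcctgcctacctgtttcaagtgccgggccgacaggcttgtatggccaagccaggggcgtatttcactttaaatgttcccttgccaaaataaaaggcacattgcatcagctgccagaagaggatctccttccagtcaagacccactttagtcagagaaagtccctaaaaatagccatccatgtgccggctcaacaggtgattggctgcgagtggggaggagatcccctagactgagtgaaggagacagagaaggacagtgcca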

How the data were processed

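The authors deposited 1 table with a log2 intensity for each of 29214 probe sets on 77 arrays of sperm RNA, with values from 2.51 to 14.63. The log2 scale was read from this range. The intensities were normalized by the authors, with the steps not given in the sources used here beyond a citation of an earlier paper, and no detection call was used. Symbols came from the platform annotation, in which 15310 probe sets had 1 symbol, 323 several and 13581 none. The number of arrays limits the precision.

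Exposed and control arrays of the same time were compared by limma 3.58.1 in R 4.3.3 (lmFit and eBayes over all probe sets), with Storey q-values and a threshold of 0.05. The other 3 comparisons came from 1 fit of all 4 groups. Groups came from the labels, and p-values were adjusted over the whole array. Marker means were compared by 2-sided permutation tests with 100000 resamples and Benjamini-Hochberg adjustment. The arrays' main component was taken from residuals about group means, without the members where they were set beside it and with them where it was a covariate. The fit was tested on simulated data with independent values, which lack the variation that these arrays share, so its behaviour under that variation was not tested. Alternatives covered scaling, array weights, the main component as a covariate, arrays that stand apart, single arrays, the replicate block, dim probe sets, several probe sets per gene and, chosen after seeing the data, robust regression.

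The text names Uqcrc2, the catalytic and defining subunits, chosen pairs of complex IV genes, members that passed, and the 3 members with the smallest p in each direction of the 2 exposure comparisons. From the other pathway lists it names genes that passed or had the smallest p. Other members named for an extreme value, for an unadjusted p or without certain arrays were chosen after their values were seen. The members and the gene lists were chosen with earlier results of these data known.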

Additional observations from a re-analysis of the deposited data

How the results depend on the processing

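The count of 0 members that passed held in each of the 5 comparisons with Benjamini-Hochberg adjustment, with array medians centred, after quantile normalization, without the dimmest 25% of probe sets, with the mean of all probe sets of a gene and with robust regression. Leaving out 1 array at a time gave counts of 0 to 0. Replicate numbers are shared by the groups, but same-numbered arrays did not deviate together (median r 0.03 over 19 pairs of HD and water arrays and 0.04 over 18 recovery pairs, with 2 and 4 arrays closest to their own number), and with the replicate block 0 members passed in each comparison. For HD minus water 8 members passed with the arrays that stood apart left out, all lower (6.94% of all probe sets higher and 7.95% lower). With array weights 11 passed, 10 of them lower (9.05% of all probe sets higher and 8.67% lower). For HD-recovery minus water-recovery 3 passed with array weights (1.45% of all probe sets higher and 0.349% lower). With the main component as a covariate 1 passed (0.144% of all probe sets higher and 0.0171% lower). Once the arrays that stood apart were left out 44 passed (6.54% of all probe sets higher and 6.58% lower). For the difference of the 2 effects 49 passed with array weights (1 higher and 48 lower, with 20% of all probe sets higher and 13.6% lower). With the covariate 1 passed (0.0685% of all probe sets higher and 1.15% lower). Once the arrays that stood apart were left out 59 passed (31.3% of all probe sets higher and 16.8% lower), and the median over the members was -0.39. For HD-recovery minus HD 49 passed with array weights (45 higher and 4 lower, with 15.1% of all probe sets higher and 30.1% lower). Once the arrays that stood apart were left out 48 passed (15.1% of all probe sets higher and 30.6% lower). For water-recovery minus water 6 passed with the covariate, all lower (0.493% of all probe sets higher and 0.585% lower). Both array weights and leaving out arrays give less weight to the same kind of array, and otherwise the cause was not tested. Where large shares of all probe sets passed, a q-value could lie below its unadjusted p. Signs turned in these settings for HD-recovery minus HD: with array weights Uqcrc2 was at 0.20, Sdhb at 0.18, Atp5f1a at 0.13, Atp5f1b at 0.33, Cox5b at 0.17 and Ndufb9 at 0.22, and with the arrays that stood apart left out they were at 0.24, 0.20, 0.15, 0.42, 0.19 and 0.23 in the same order, with Cox5a at 0.22. For the difference of the 2 effects, Atp5f1a was at -0.25 without the arrays that stood apart.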
